A study of Mus musculus with 6 samples.

Results

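Chemokine receptors are G protein-coupled receptors of the cell surface through which leukocytes sense gradients of small secreted proteins, the chemokines, and move along them. In macrophages and microglia, inflammatory stimuli such as LPS change which of these receptors a cell carries. Ccr7, which binds Ccl19 and Ccl21, is known for guiding activated dendritic cells and T cells to lymph nodes and is used as a marker of inflammatory activation in macrophages.

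The genes described here are the receptors Ccr1, Ccr2, Ccr3, Ccr7, Cxcr3 and Cxcr4 and the atypical receptor Ccrl2, 7 of the 23462 mouse genes that could be matched to a probe of the array. They were chosen partly on the array values themselves, since the log2 fold changes of this same comparison were known when the list was drawn up, and no threshold was part of the choice. Their differences between the groups are therefore given as a description, with standard errors and without p-values. Every spot other than a control spot whose accession belonged to one of these genes was kept, which gave 9 probes, 2 each for Ccr7 and Cxcr4 and 1 for each of the others.

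RNA came from BV2 cells, an immortalized mouse microglial line, on 6 one-colour arrays. All of the cells had received LPS, the bacterial lipopolysaccharide, which the culture methods of the study give as 500 ng/ml for 6 h without naming the arrays. The 3 control arrays held cells without PGC-1α overexpression and the 3 others held PGC-1α-overexpressing cells, made by lentiviral transfer of a PGC-1α gene fragment in a vector whose name starts with Ubi and by selection with puromycin. Whether the control cells of the arrays carried the empty virus is not said in the labels, and neither is whether the 3 samples of a group were separate cultures, so that p-values measure the spread between these samples only. In a bulk sample of this kind, fewer cells that express a gene and less RNA per cell cannot be told apart.

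Depth on an array is set by signal over background. Between 41122 and 45165 of the 59305 spots per array were called well above background by the scanner software, and the lowest intensity with that call was 11.0 to 24.3. The 75th percentile of intensity was 1617 to 1893 on the control arrays and 856 to 1268 on the overexpression arrays. Values were therefore taken on the log2 scale relative to the 75th percentile of the same array, and each log2 fold change is the mean of PGC-1α-overexpressing cells less that of control cells. Over all 17062 genes tested, the median of the log2 fold changes was 0.23 with this scaling and 0.03 with quantile normalization. The targeted gene, Ppargc1a, lay close to background, with intensities of 21.8, 19.6 and 9.06 in control cells against 22.3, 22.1 and 21.2 in PGC-1α-overexpressing cells for one probe, and with log2 fold changes of 1.14 and 0.26 for its 2 probes. It gives no firm check of the labels. All 12 microglia and macrophage markers examined were well above background on every array, whereas Cx3cr1, the fractalkine receptor that marks microglia in the brain, was so on none.

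Of the 7 genes, 5 were well above background on all 6 arrays. Ccr7, Ccrl2, Cxcr3 and Cxcr4 were lower on the overexpression arrays, by 17.1-fold, 5.55-fold, 4.23-fold and 1.59-fold, and Ccr3 was 1.52-fold higher. Ccr1 and Ccr2 were not well above background on any array. In the limma fit across all genes, 4 of the 5 measured receptors were lower and 1 higher at an adjusted p of 0.05, beside 19.6% of all genes lower, 36.9% higher and 56.5% in either direction. On the scaled values the groups did not overlap in these 5 genes, a pattern that 22.9% of all genes showed downward and 42.6% upward. The members were picked with this contrast known, so these counts are not read against the background.

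**Figure D1:**
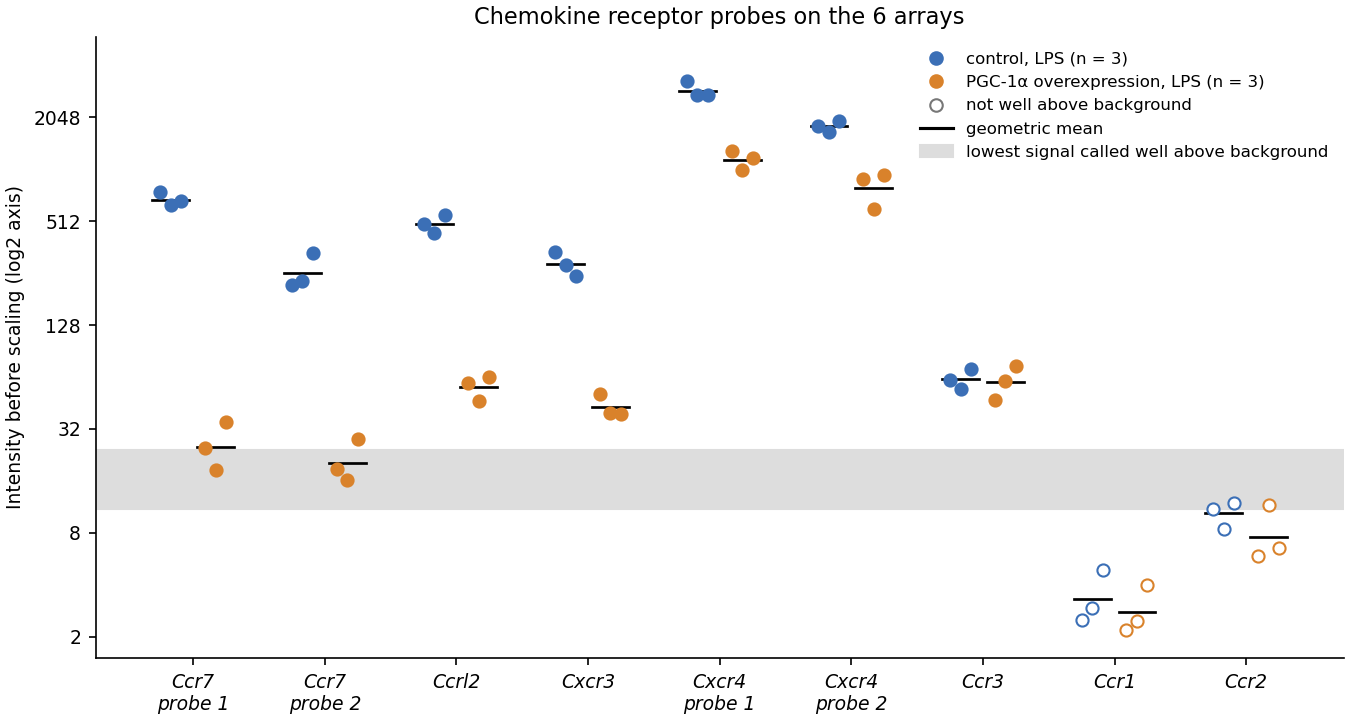
Intensity of the 9 receptor probes on a log2 axis before scaling between arrays, for 3 control arrays and 3 PGC-1α overexpression arrays, with the geometric mean of each group as a bar and open points where no array was well above background. Both Ccr7 probes lie at 220 or more on the control arrays and at 35.0 or less on the overexpression arrays, close to the grey band of the lowest signals still called well above background (11.0 to 24.3), while the points of Ccr3 overlap between the groups.

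Ccr7 (NM_007719) gave intensities of 752, 635 and 666 in control cells against 24.7, 18.6 and 35.0 in PGC-1α-overexpressing cells with its brighter probe. Every overexpression array was thus far below every control array. After scaling the log2 value was -1.32 ± 0.20 (SD, n = 3) in control cells and -5.42 ± 0.21 (SD, n = 3) in PGC-1α-overexpressing cells, so that the log2 fold change was -4.09 (standard error, SE, 0.16). Relative to the median of all genes it was -4.32. Of the 16919 genes measured on at least 1 array of each group, 3 had a more negative log2 fold change than the brighter Ccr7 probe. The rank was not taken for the second probe, and Ccr7 was picked with this contrast known. The second Ccr7 probe gave 220, 230 and 333 in control cells against 18.9, 16.2 and 28.0 in PGC-1α-overexpressing cells, so that the log2 fold change was -2.99 (SE 0.16), or 7.93-fold. Both probes placed the groups apart in the same direction, with sizes that differed by 1.11 on the log2 scale. On the overexpression arrays the brighter probe stood only 1.54 to 2.24 times above the lowest signal called well above background on the same array, and the second 1.34 to 1.71 times, compared with 27.4 to 60.8 times and 13.7 to 17.8 times on the control arrays. The log2 ratio of the brighter to the second probe was 1.78, 1.46 and 1.00 in control cells against 0.39, 0.21 and 0.32 in PGC-1α-overexpressing cells. Within slide 1, with 2 arrays of each group, the log2 fold change of the brighter probe was -4.31, and within slide 2, with 1 of each, -3.67. Under normexp, a background correction run with 50 units added to every signal, which compresses low signals by construction, it was -2.45 with the 75th percentile and -2.69 with quantiles.

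Ccrl2 (NM_017466) is an atypical receptor that binds the chemoattractant chemerin, presents it to other receptors and does not itself start the usual G protein signal. Its intensities were 490, 438 and 552 in control cells against 58.7, 46.5 and 64.0 in PGC-1α-overexpressing cells. The 2 groups lay far apart, and the arrays within each group lay close together. The scaled log2 value was -1.80 ± 0.09 (SD, n = 3) against -4.27 ± 0.06 (SD, n = 3), so that the log2 fold change was -2.47 (SE 0.12), with -2.44 within slide 1 and -2.53 within slide 2. With normexp it was -1.63 after the 75th percentile and -1.85 after quantile normalization.

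Cxcr3 (NM_009910) is the receptor for the interferon-induced chemokines Cxcl9 and Cxcl10 and is best known from T cells. It gave intensities of 337, 285 and 247 in control cells against 51.2, 39.6 and 39.0 in PGC-1α-overexpressing cells, again without overlap. Its arrays were more spread out than those of Ccrl2, with scaled log2 values of -2.57 ± 0.34 (SD, n = 3) and -4.65 ± 0.32 (SD, n = 3) and a log2 fold change of -2.08 (SE 0.22). That of slide 1 was -2.08 and that of slide 2 was -2.08. Under normexp the log2 fold change was -0.92 with the 75th percentile and -1.23 with quantiles.

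Cxcr4 (NM_009911), the receptor for Cxcl12, retains haematopoietic cells in their niches. Its brighter probe gave intensities of 3318, 2742 and 2748 in control cells against 1307, 1009 and 1195 in PGC-1α-overexpressing cells. The scaled log2 values were 0.78 ± 0.25 (SD, n = 3) and 0.11 ± 0.17 (SD, n = 3), so that the log2 fold change was -0.67 (SE 0.16). The second probe was lower by a similar amount, -0.52 (SE 0.12), with intensities of 1816, 1685 and 1941 against 897, 603 and 946. Both probes stood at least 49.0 times above the lowest signal called well above background on their array, and across all alternatives the log2 fold change of the gene stayed between -0.79 and -0.54. Of the 4 lower genes Cxcr4 had the smallest decrease and the narrowest range over these alternatives.

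Ccr3 (NM_009914), which binds Ccl11 and Ccl24 and is known from eosinophils, was the exception in direction. Its intensities were 61.4, 54.4 and 71.1 in control cells against 47.1, 60.6 and 74.2 in PGC-1α-overexpressing cells, and these overlapped. After scaling by the 75th percentile, which was lower on every overexpression array, the groups did not overlap, at -4.78 ± 0.10 (SD, n = 3) and -4.18 ± 0.40 (SD, n = 3), so that the log2 fold change was 0.61 (SE 0.20). Relative to the median of all genes it was 0.38, and it was 0.42 after quantile normalization, 0.39 with the authors' processed values and 0.22 with normexp and quantile normalization, each with a standard error of 0.12 to 0.22. Quantile-normalized values overlapped, at 5.85, 5.52 and 5.79 in control cells against 5.64, 6.49 and 6.29 in PGC-1α-overexpressing cells.

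Ccr1 (NM_009912), which binds Ccl3 and Ccl5, gave intensities of 2.19 to 4.87 over the 6 arrays, and Ccr2 (NM_009915), the Ccl2 receptor of monocytes, 5.83 to 12.0. The intensity of Ccr1 was 0.20 to 0.21 times the lowest signal called well above background on the same array and that of Ccr2 0.34 to 0.96 times. No fold change is given for either gene, since both groups have only an upper bound. Of the genes next to them, Ccr1l1 was not well above background on any array and Xcr1 was so on 1 overexpression array. In the RefSeq order of genes of GRCm38 Xcr1, Ccr1, Ccr1l1, Ccr3 and Ccr2 follow each other on chromosome 9, and of these Ccr3 was the only gene well above background on every array. Ccrl2 lies on the same chromosome with 116 protein-coding genes between it and Ccr1, while Cxcr4 lies on chromosome 1, Ccr7 on chromosome 11 and Cxcr3 on chromosome X.

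**Figure D2:**
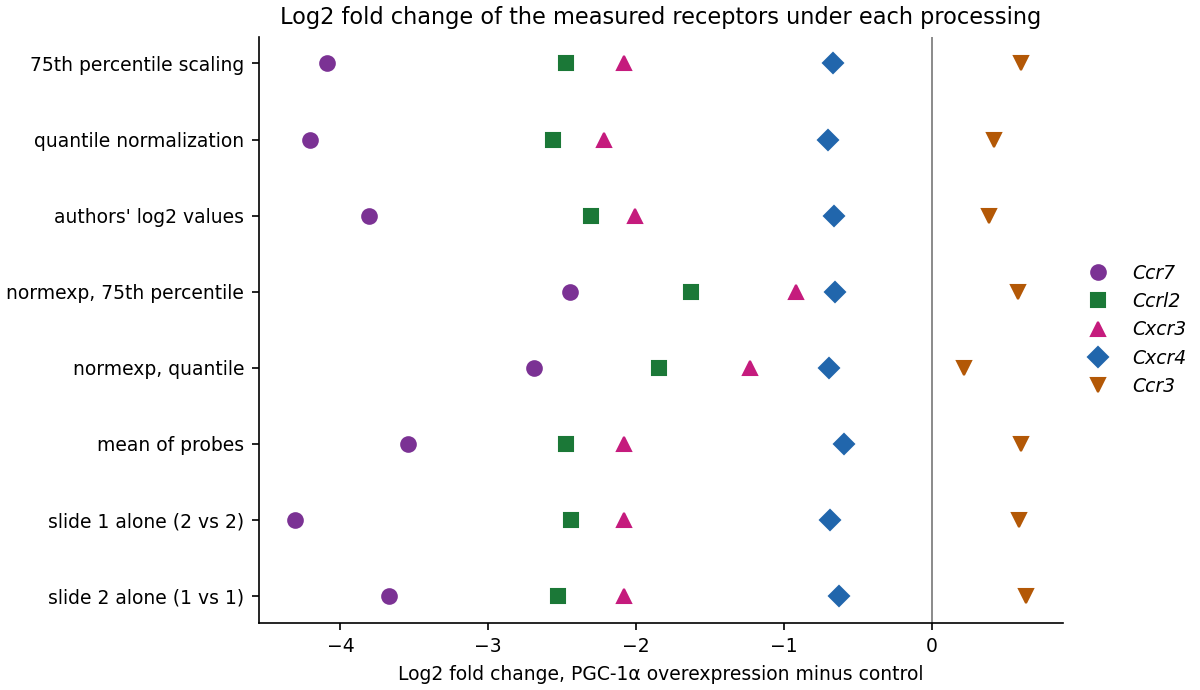
Log2 fold change (PGC-1α overexpression minus control) of the 5 measured receptors under 75th percentile scaling, other normalizations, other background correction, the mean of a gene's probes, and each slide alone. Ccr7, Ccrl2, Cxcr3 and Cxcr4 stay below 0 and Ccr3 above 0 in each of them, and the 2 normexp settings draw Ccr7 in from -4.09 to -2.45 and -2.69 while Cxcr4 stays at -0.65 and -0.69.

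The ratio of 2 receptors on the same array does not depend on the 75th percentile scaling, which shifts all values of an array alike. Quantile normalization can change it. The ratio shows where the differences between the groups were of unequal size. The log2 ratio of Ccr7 to Ccrl2 was 0.62, 0.54 and 0.27 in control cells against -1.25, -1.32 and -0.87 in PGC-1α-overexpressing cells. Ccr7 was thus lower by more than Ccrl2, with a difference of -1.62 on the log2 scale (SE 0.18) for the brighter Ccr7 probe. With the second Ccr7 probe the difference was -0.51 (SE 0.18), and with normexp it was -0.82 and -0.85 for the brighter one. The ratios of Ccrl2 to Cxcr3 were 0.54, 0.62 and 1.16 against 0.20, 0.23 and 0.72, which overlap across slides, and differed by -0.39 (SE 0.26). The last array of each group was on slide 2. Within slides, a comparison added after seeing the data, the difference was -0.36 on slide 1 and -0.45 on slide 2, which holds 1 array of each group. With the slide as a block the SE of the difference was 0.037. The ratio of Cxcr3 to Cxcr4 was lower by 1.42 (SE 0.11), without overlap between the groups. That of Cxcr4 to Ccr3 was lower by 1.27 (SE 0.29), also without overlap. After quantile normalization the difference was -1.51 for Cxcr3 and Cxcr4 and -1.12 for Cxcr4 and Ccr3. Ordered by decrease, Ccr7 came first, then Ccrl2 and Cxcr3, then Cxcr4 and last Ccr3. For Ccrl2 and Cxcr3 the order is not settled. Their ratios set the groups apart within slide 1 but overlapped across slides. Slide 2, with 1 array of each group, gives no spread within a group. With normexp and the 75th percentile the difference between Cxcr3 and Cxcr4 shrank to -0.27.

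**Figure D3:**
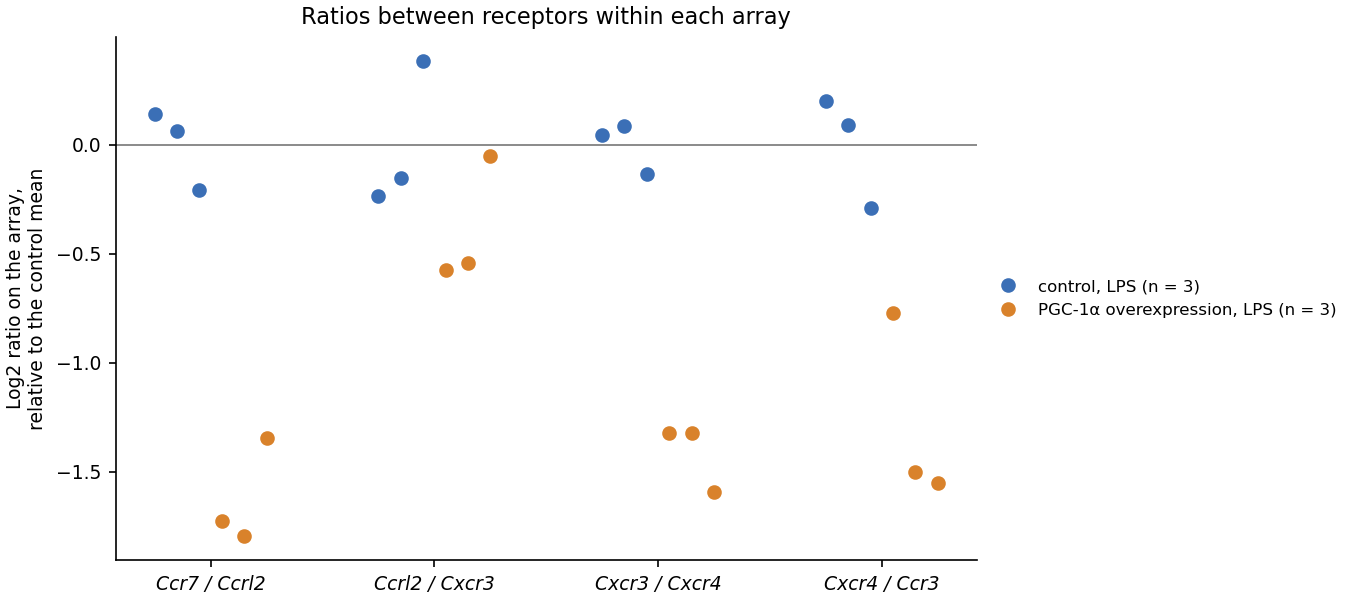
Log2 ratio of 2 receptors measured on the same array, relative to the mean of the 3 control arrays, for neighbours in the order of decrease. The 3 overexpression arrays lie below the 3 control arrays for Ccr7 over Ccrl2, Cxcr3 over Cxcr4 and Cxcr4 over Ccr3, whereas for Ccrl2 over Cxcr3 the arrays overlap, the highest point of each group being its array on slide 2.

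Since several of these receptors were lower together, the bases just before their transcript starts were searched for the consensus of NF-κB, the factor through which LPS induces many genes, and for the motif TNAAGGTCA of the estrogen-related receptors, which partner with PGC-1α. Both strands of the 250 bases before the start were read from the RefSeq promoters of GRCm38.p6, which hold 6 of the 7 genes (Ccr7 has no entry) with 8 starts, 3 of them of Ccrl2. The NF-κB consensus was found once in Ccr3 and once in the most upstream of the Ccrl2 promoters, and in none of the other 6. Among all genes in the table, 4.46% had a match in at least 1 promoter, 3.90% of promoters counted singly. The estrogen-related receptor motif was in none of the 8 promoters and in 1.14% of all promoters. The promoters of the lower genes Ccrl2, Cxcr3 and Cxcr4 and of Ccr3 are shown to compare those with and without a match. Capitals mark the NF-κB consensus, which begins 56 bases before the start in Ccrl2 and 179 before it in Ccr3, and the regions are chr9:111057519-111057768 (minus strand), chrX:101734148-101734397 (minus strand), chr1:128592300-128592549 (minus strand) and chr9:124021721-124021970 (plus strand). A match of letters is no evidence of binding, and the absence of one says nothing on the factor.
Ccrl2: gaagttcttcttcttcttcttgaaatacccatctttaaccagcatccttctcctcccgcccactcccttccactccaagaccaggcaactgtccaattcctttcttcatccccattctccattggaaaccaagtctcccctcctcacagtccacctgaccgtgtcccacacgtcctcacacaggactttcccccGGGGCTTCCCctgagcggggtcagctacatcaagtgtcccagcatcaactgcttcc
Cxcr3: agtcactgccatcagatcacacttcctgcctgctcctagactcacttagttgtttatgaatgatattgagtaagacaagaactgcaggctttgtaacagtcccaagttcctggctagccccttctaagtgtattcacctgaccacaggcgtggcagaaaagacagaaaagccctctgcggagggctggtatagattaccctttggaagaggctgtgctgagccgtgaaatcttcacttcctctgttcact
Cxcr4: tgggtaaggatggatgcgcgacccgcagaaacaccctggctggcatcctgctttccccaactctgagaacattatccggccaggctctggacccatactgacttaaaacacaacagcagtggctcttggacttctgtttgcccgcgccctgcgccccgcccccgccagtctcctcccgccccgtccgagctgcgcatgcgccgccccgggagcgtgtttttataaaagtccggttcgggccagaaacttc
Ccr3: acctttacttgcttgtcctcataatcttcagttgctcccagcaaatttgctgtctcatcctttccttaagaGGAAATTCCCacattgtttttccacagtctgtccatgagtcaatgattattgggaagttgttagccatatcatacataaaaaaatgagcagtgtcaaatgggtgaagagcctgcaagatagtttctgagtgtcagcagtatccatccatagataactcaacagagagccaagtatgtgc

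The profile of Ccr7 over the 6 arrays was compared with that of the other 16295 genes with values on every array, each centred on its own control mean. The nearest were Fancf, Zfp319, Klhl38, 4930520E11Rik and Homez, with root mean square differences of 0.20 to 0.26 on the log2 scale and log2 fold changes of -4.26 to -3.85. Their Pearson's r with Ccr7 was 0.99 or higher over 6 arrays, which fall into 2 groups of 3, and the likeness is a description. In control cells each of them exceeded background on 3 of 3 arrays. On the overexpression arrays Fancf was so on 3, Klhl38 and Homez on 2, and Zfp319 and 4930520E11Rik on 0, so the log2 fold changes of the last pair rest on signals not above background.

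Receptors outside the 7 were listed to describe the rest of the family. Since the 7 were picked with this contrast known, the rest cannot answer for the family as a whole. They were tested with limma over all 17062 genes. Of 19 such receptors, 18 were on the array and 12 were tested, of which 6 rose, 2 fell and 4 did not pass. Among all genes tested, 36.9% were higher and 19.6% lower at the same threshold. Cxcr1, a receptor of neutrophils, fell from intensities of 287, 282 and 277 to 66.0, 38.8 and 72.7, so that the log2 fold change was -1.64 (SE 0.15, with a limma adjusted p = 1.7e-04), and Cxcr5, known from B cells, fell by 0.75 (limma adjusted p = 0.0049) with 1 of 3 overexpression arrays well above background. The sign of Cxcr5 turned with normexp and the 75th percentile (0.25). Ackr1, an atypical receptor that binds many chemokines without signalling, rose by 1.02 (limma adjusted p = 0.0032), its intensities being 414, 484 and 456 in control cells against 547, 601 and 585 in PGC-1α-overexpressing cells. Ccr6, the receptor for Ccl20, rose by 0.87 (limma adjusted p = 0.0025), with intensities of 94.3 to 98.7 against 99.2 to 129. Both also passed after quantile normalization (limma adjusted p = 0.0046 and 0.0053). Ccr8 (0.88), Ccr9 (0.53), Cxcr2 (0.41) and the chemerin receptor Cmklr1 (0.45) also rose, but none of these 4 passed after quantile normalization (adjusted p = 0.070, 0.11, 0.095 and 0.051). There the count was 2 higher and 3 lower, beside 3700 higher and 3558 lower of all 17062 genes. Ccr4 was added with a log2 fold change of -0.64. With the 75th percentile Ccr4 gave -0.42 (limma adjusted p = 0.057), and its second probe gave -1.31. The median log2 fold change of the 12 was 0.38, beside 0.23 over all genes.

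Of 20 ligands of the 7 receptors, 14 were tested, and 5 rose, 3 fell and 6 did not pass, beside 36.9% of all genes higher and 19.6% lower. After quantile normalization 4 rose and 4 fell, beside 3700 higher and 3558 lower of all 17062 genes. For Ccr7 the receptor and its ligands lay on opposite sides. Ccl19 rose by 0.85 (SE 0.17, with a limma adjusted p = 0.0047), with intensities of 842, 910 and 1075 in control cells against 897, 1029 and 1325 in PGC-1α-overexpressing cells, and Ccl21a rose by 0.76 (limma adjusted p = 0.0046), although its probe may bind the near-identical Ccl21b and Ccl21c, which were not matched to a probe. The intensities themselves overlapped for both genes, so both rises were seen only on values scaled between arrays. Those of Ccl21a were low, at 32.9 to 39.1 against 30.1 to 44.2. Ccl19 kept its call after quantile normalization (0.87, limma adjusted p = 0.0050) and with normexp and quantile normalization (0.75, limma adjusted p = 0.0045). Ccl21a passed after quantile normalization (0.54, limma adjusted p = 0.020) but no longer with normexp and quantile normalization (0.16, limma adjusted p = 0.25). Among ligands of Ccr2, which was not above background, Ccl7 fell by 3.53 (SE 0.13, with a limma adjusted p = 1.2e-05), from intensities of 226, 241 and 226 to 14.6, 9.9 and 13.9, with 1 of 3 overexpression arrays well above background, and with normexp its log2 fold change was -1.29 and -1.65. Ccl2 fell by 2.61. Ccl24, a ligand of Ccr3, fell by 0.81 (SE 0.13, with a limma adjusted p = 0.0017). Its intensities went from 1322, 1217 and 1300 to 458, 374 and 567. Ccl11, the other main ligand of Ccr3, gave -0.01 (SE 0.38) but lay near background. Its intensities were 25.7, 31.4 and 33.0 against 25.7, 23.6 and 10.8, with 2 of 3 overexpression arrays well above background. The value therefore cannot decide whether Ccl11 differed. Ccl5, shared by Ccr1 and Ccr3, rose by 1.09. The Cxcr4 ligands Cxcl12 (0.67) and Mif (0.69) rose as well and are named here after their values were seen. The 2 matched Cxcl12 probes gave 0.67 and -0.16, and Mif was 0.07 after quantile normalization. Of the Cxcr3 ligands, Cxcl10 gave 0.19 (SE 0.22), and Cxcl9 was well above background on 1 array. Rarres2, which encodes chemerin, the ligand of Ccrl2, gave 0.16 (SE 0.16, with a limma adjusted p = 0.41).

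**Figure D4:**
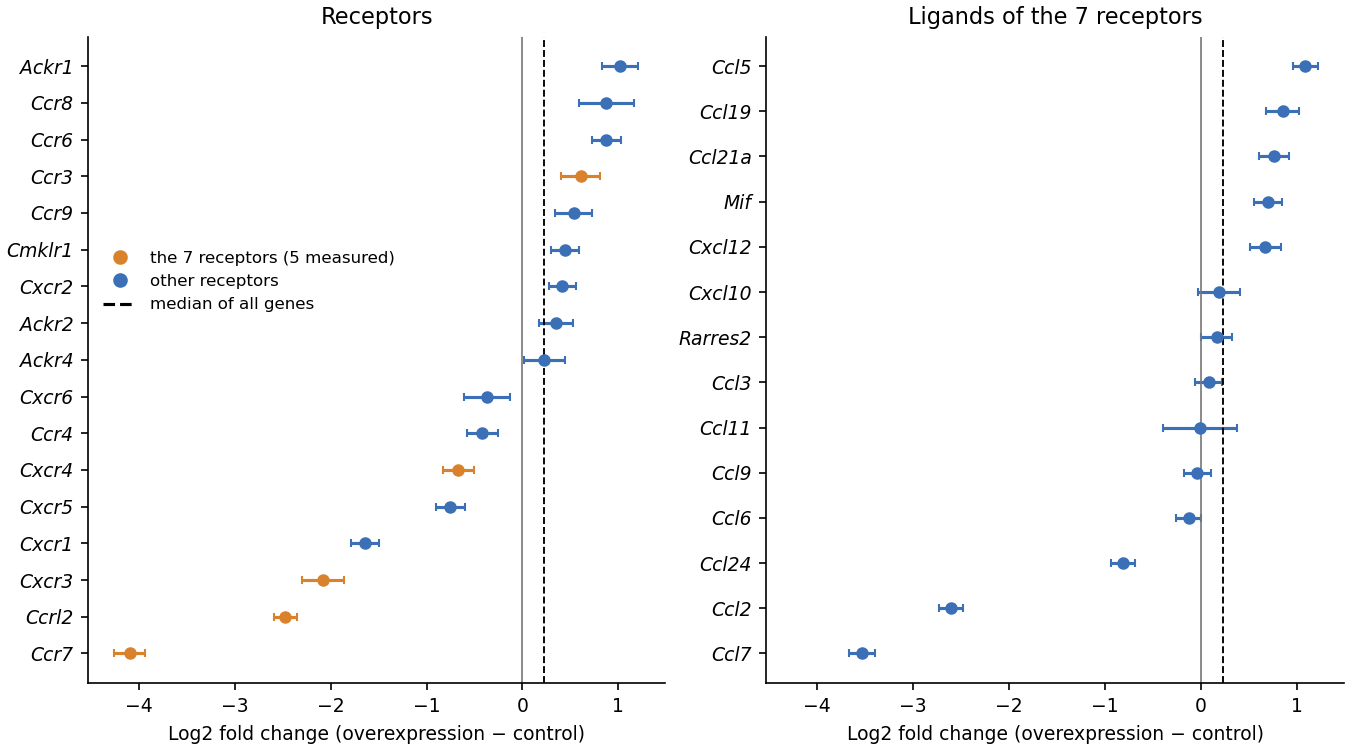
Log2 fold change with its standard error for the receptors and for the ligands of the 7 receptors that were tested, 3 control against 3 PGC-1α overexpression arrays, with the median of all genes (0.23) as a dashed line. Ccr7 (-4.09), Ccrl2 (-2.47) and Cxcr3 (-2.08) are the 3 lowest receptors, the receptors outside the 7 lie from -1.64 (Cxcr1) to 1.02 (Ackr1), and the ligands run from -3.53 (Ccl7) to 1.09 (Ccl5).

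Downstream of the receptors, 27 of 30 listed signalling genes were tested, and 8 rose, 6 fell and 13 did not pass, with a median log2 fold change of 0.26. Of all genes 36.9% were higher and 19.6% lower. The balance of the list turned with the scaling, to 2 higher and 8 lower after quantile normalization and 2 higher and 10 lower with the authors' processed values. In these 2 settings all genes gave 3700 higher and 3558 lower, and 3960 higher and 3824 lower. The 3 largest decreases were in Pik3cg, the catalytic subunit of PI3Kγ that receptor-released Gβγ activates, in Vav1, an exchange factor for Rac, and in Rgs2, which shortens G protein signals. Pik3cg fell from intensities of 654, 660 and 700 to 237, 169 and 235, so that the log2 fold change was -1.01 (SE 0.12, with a limma adjusted p = 5.4e-04). Vav1 fell by 0.93 and Rgs2 by 0.76. Grk3, a kinase that desensitizes receptors, rose by 1.44 (SE 0.16, with a limma adjusted p = 4.7e-04), with intensities of at most 60.7 in control cells and at least 85.0 in PGC-1α-overexpressing cells. These 4 calls held after quantile normalization. Cdc42 (0.66) and the G protein subunit Gnb2 (0.62) rose too, but after quantile normalization they were at 0.12 and 0.04 (adjusted p = 0.53 and 0.85), and without control replicate 1 the list had 8 calls in place of 14.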

How the data were processed

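Gene expression was measured in 3 control and 3 PGC-1α-overexpressing samples of LPS-treated BV2 cells. Per the file headers, the authors' intensity values came from Agilent Feature Extraction 11.5.1.1, which subtracted the background and removed spatial trends in the green channel without scaling between arrays. The labels name Cy3 and the labelling protocol Cy5. The authors also deposited log2 values normalized in GeneSpring by an unnamed procedure. Each of those 6 columns has a median of 8.29.

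Here log2 intensity minus the 75th percentile of the array was used, outlier spots were left out and repeated spots averaged. Of 56605 probes, 33767 (59.7%) were matched by accession to RefSeq genes of GRCm38.p6, whereas the array design names an older assembly. A gene's brightest probe was used among those with values on at least 2 arrays per group and well above background on all 3 arrays of 1 group. Groups were compared with limma 3.58.1 in R 4.3.3 (lmFit, eBayes, two-sided, Benjamini-Hochberg over all tested genes, threshold 0.05), a step tested on simulated data. With 3 against 3 arrays the smallest exact permutation p is 0.1.

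The members and gene lists were chosen with earlier results of these data known. Named are all members, genes past the threshold of the lists other than cell type markers (the 3 largest each way in lists with over 6), the 5 genes nearest to Ccr7 and the neighbours of Ccr1 to Ccr2. Of the listed genes, Cmklr2, Ccl21b, Ccl21c and Cxcl11 were not matched to a probe. Alternatives were quantile normalization, normexp (offset 50, on median signal and median background), the authors' values, other filters, the mean of probes, blocks for slide or replicate number, eBayes with trend and robust estimation, and each array left out. The second Ccr7 probe and each slide alone, for differences between receptors, were added after seeing the data. Python 3.11.15 and matplotlib 3.10.9 prepared tables and plots.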

Additional observations from a re-analysis of the deposited data

How the results depend on the processing

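Every alternative kept the sign of the 5 measured receptors and of the 4 differences between them. Ccr7 was -2.45 under normexp scaled by the 75th percentile, -2.69 under normexp with quantiles, -3.80 with the authors' values, -3.54 with the mean of probes, -4.31 within slide 1 and -3.67 within slide 2. In the same 2 normexp settings Ccrl2 was -1.63 and -1.85 and Cxcr3 was -0.92 and -1.23. Ccrl2 was -2.56 with quantile normalization and -2.31 with the authors' values, and Ccr3 was 0.22 with normexp and quantile normalization. The difference of Ccr7 and Ccrl2 was -0.82 and -0.85 under normexp and -1.07 with the mean of probes, and, in settings chosen after seeing the data, -0.51 with the second Ccr7 probe, -1.86 within slide 1 and -1.14 within slide 2. The difference of Ccrl2 and Cxcr3 was -0.71 under normexp with the 75th percentile, that of Cxcr3 and Cxcr4 was -0.27 and -0.54 under normexp, and that of Cxcr4 and Ccr3 was -0.91 under normexp with quantile normalization. An offset compresses dim signals by construction. The other causes were not tested.

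With 1 array left out, Ccr7 ranged from -4.21 to -3.99, Ccrl2 from -2.52 to -2.44, Cxcr3 from -2.27 to -1.90, Cxcr4 from -0.79 to -0.54 and Ccr3 from 0.43 to 0.83. The differences ranged from -1.76 to -1.53 for Ccr7 and Ccrl2, from -0.56 to -0.20 for Ccrl2 and Cxcr3, from -1.48 to -1.33 for Cxcr3 and Cxcr4 and from -1.53 to -1.14 for Cxcr4 and Ccr3.

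Over all genes 9633 passed, and 6405 with normexp and quantile normalization. Of the calls 65.3% were higher (6290 against 3343 lower), which changed to 3700 against 3558 with quantile normalization and 2938 against 3467 with normexp and quantile normalization. Leaving out 1 array gave 7406 to 9907 calls. Other receptors past the threshold numbered 8, 5 with quantile normalization, 4 with normexp and quantile normalization, and 4 to 7 with 1 array left out, 4 each without control replicate 1 or 3 or overexpression replicate 1 or 2. Ligands numbered 8 (5 higher), 6 with normexp and quantile normalization (2 higher), and 8 to 9 with 1 array left out. Signalling genes numbered 14 (8 higher), 9 with normexp and quantile normalization (1 higher), and 8 to 12 with 1 array left out, 8 without control replicate 1 and 9 without control replicate 2 or overexpression replicate 1. Gnb1 turned to -0.13 with quantile normalization, -0.089 with normexp and quantile normalization and -0.16 with the authors' values, Gnb2 to -0.10 with normexp and quantile normalization, and Cxcr5 to 0.25 with normexp and the 75th percentile.

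With the replicate number as a block 10562 genes passed, and the standard error became 0.13 in place of 0.22 for Cxcr3 and 0.13 in place of 0.16 for Cxcr4. With the slide as a block 10921 genes passed, and these standard errors were 0.12 and 0.13. Replicate 3 of each group was the array on slide 2. A balanced block cannot move the log2 fold changes. Deviations of same-numbered arrays from their group means correlated at -0.16, 0.07 and 0.60, so the numbers were not taken to pair the arrays, and not every array was closest to its own number.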

Other observations

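Markers of the cell types that carry these receptors were also measured, and the genes named here were chosen after their values were seen. All 12 microglia and macrophage markers were well above background on every array. With the 75th percentile 6 were higher and 1, Mertk, lower at an adjusted p of 0.05 from limma, but after quantile normalization 0 were higher and 2, Mertk and Adgre1, lower. Their summed level relative to the 75th percentile, 99.9 to 106 on the control arrays and 143.9 to 169 on the overexpression arrays, thus depends on the scaling. Mertk, a receptor for the uptake of dying cells, had a log2 fold change of -1.06.

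Among 9 dendritic cell markers 8 were tested, with Flt3 at -1.44 (limma adjusted p = 1.8e-04), Cd83 at -0.47, Cd209a at 0.95 and the other 5 not past the threshold. The summed level of that list was 11.6 to 13.9 on the control arrays and 12.1 to 15.2 on the overexpression arrays, which overlap.

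The T and NK cell, B cell and granulocyte lists held members past the threshold in both directions. T and NK cell markers, with 5 of 9 well above background on every array, summed to 1.09 to 1.27 and 1.47 to 1.89, with Cd4 at 0.79 but Cd8a at -1.73. B cell markers, with 3 of 5, summed to 0.72 to 0.85 and 0.74 to 1.02, with Pax5 at 0.96 and Cd79b at -1.29. Granulocyte markers, with 5 of 8, summed to 0.23 to 0.28 and 0.32 to 0.41, with Mpo at 0.93 and Siglecf at -1.10. Neuron and macroglia markers, with 6 of 9, summed to 23.2 to 29.0 and 36.7 to 50.1, nearly all of it Snap25, which was at 0.11 after quantile normalization, and without Snap25 to 1.23 to 1.38 and 1.51 to 1.74. Cd3g, Gzmb, Ms4a1, S100a9 and Syt1 were not well above background on any array. Like the sums of the microglia list, the sums of these lists are relative to the upper percentile of the same array. That percentile was lower on every overexpression array. The higher sums on those arrays thus depend on the scaling and are not read as more cells of these types. The part of other cell types in the receptor values was not tested.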
